A study of Mus musculus with 6 samples.

Results

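Ifit1, Ifit2, Ifit3, Ifit3b, Ifi27l2a, Ifi35, Ifi44, Rsad2, Cmpk2 and Xaf1 are 10 interferon-induced effector genes of the mouse, here taken by symbol from a count table of 54532 genes. All 10 were in the table and had a count in at least 1 library, and 8 of them had enough counts to be tested among 12269 genes. The cells were BV2, an immortalised microglial line of the mouse, sequenced in 3 libraries labelled SMEK1 knockdown (A, B and C) and 3 labelled WT (A, B and C). SMEK1 is a regulatory subunit of protein phosphatase 4 encoded by Ppp4r3a. Both groups were cultured in the same serum-containing medium, and no label names an interferon, a virus or another stimulus. The design text of the series treats both sets, named LV1 and NL, as knockdown derivatives of BV2. Not given in the sources used here are the construct in each group, the number of clones and whether cultures were grown separately. All p-values therefore measure the spread between these libraries, which may be technical, and any other difference between the 2 cultures cannot be told apart from the knockdown.

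Cells that sense virus secrete type I interferon, which binds the receptor formed by IFNAR1 and IFNAR2 and activates the kinases JAK1 and TYK2. Signals from these kinases reach factors that bind a DNA element, the interferon-stimulated response element (ISRE), in front of genes such as those described here. The IFIT proteins bind foreign RNA and hold back its translation, RSAD2 (viperin) and CMPK2 act on nucleotides, IFI27 proteins are small hydrophobic membrane proteins, and XAF1 binds the apoptosis inhibitor XIAP. Microglia, the resident macrophages of the brain, use this response against infection and also show it in injured and ageing tissue.

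The sequence just upstream of the transcription start is shown for 6 of the genes, because ISRE-like letters are the feature through which interferon is known to reach this family. RefSeq promoter windows on GRCm38.p6, from 250 bases before to 50 after each start, matched 9 of the 10 genes by symbol. The letters GAAANNGAAA, the core of an ISRE, were searched on both strands. They were found in 4 of the 9 genes (44.4%), Ifit1, Ifit3, Ifit3b and Rsad2, and in 3.44% of all 32851 windows. Counted per gene, they were found in 3.75% of the 8967 tested genes with a window. The share was 5.17% of such genes called lower in the knockdown and 2.92% of those called higher. Among 30 other interferon-induced effectors with a window, whether tested or not, 15 held the letters. The stretches below run 5′ to 3′ along each gene's own strand and end at the base before the start, and the capitals mark the match, which reads TTTCNNTTTC because it lies on the opposite strand. They cover chr19:34640729-34640888 (Ifit1, plus strand), chr19:34583369-34583528 (Ifit3, plus), chr19:34607797-34607956 (Ifit3b, plus), chr12:26456453-26456612 (Rsad2, minus), chr12:26469055-26469214 (Cmpk2, plus) and chr11:72301469-72301628 (Xaf1, plus). Of the 4 genes with the letters, Rsad2 was called lower in the knockdown, Ifit1 and Ifit3 were not called and Ifit3b was not tested. Cmpk2 and Xaf1 are shown as genes called lower without these letters in their windows. Ifi35, not shown, was called lower without them too.
Ifit1: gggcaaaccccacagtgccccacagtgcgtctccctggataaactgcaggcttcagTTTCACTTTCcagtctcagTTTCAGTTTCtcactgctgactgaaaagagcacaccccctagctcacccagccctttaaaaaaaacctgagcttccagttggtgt
Ifit3: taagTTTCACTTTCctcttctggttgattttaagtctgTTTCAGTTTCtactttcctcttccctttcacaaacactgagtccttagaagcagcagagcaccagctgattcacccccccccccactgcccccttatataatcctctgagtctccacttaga
Ifit3b: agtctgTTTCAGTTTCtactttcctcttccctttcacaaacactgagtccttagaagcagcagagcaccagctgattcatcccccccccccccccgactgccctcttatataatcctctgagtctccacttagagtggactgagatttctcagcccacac
Rsad2: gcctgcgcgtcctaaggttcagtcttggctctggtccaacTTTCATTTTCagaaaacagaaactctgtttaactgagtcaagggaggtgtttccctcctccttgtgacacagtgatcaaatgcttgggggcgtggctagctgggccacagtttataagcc
Cmpk2: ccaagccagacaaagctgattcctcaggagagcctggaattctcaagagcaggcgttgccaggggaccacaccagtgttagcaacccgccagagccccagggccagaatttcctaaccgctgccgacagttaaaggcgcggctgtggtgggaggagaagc
Xaf1: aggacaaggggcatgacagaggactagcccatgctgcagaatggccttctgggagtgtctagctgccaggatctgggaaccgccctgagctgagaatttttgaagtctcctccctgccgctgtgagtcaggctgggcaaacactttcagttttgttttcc

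Ifit1 held 2 matches, at 104 to 95 and 85 to 76 bases before the start, and Ifit3 held 2, at 156 to 147 and 122 to 113. The windows of Ifit3 and Ifit3b were near copies, with 259 of 274 aligned bases identical (94.5%). Ifit3b held the same pair of matches further out, at 188 to 179 and 154 to 145 bases, so that the outer one lies beyond the stretch shown. The single match of Rsad2 lay at 120 to 111 bases. A second motif, TTCNNNGAA, the gamma-activated site of the interferon-gamma response, was found in Ifit2 and Ifi35 and in 8.30% of all windows. A match describes letters and does not show binding.

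The targeted gene Ppp4r3a was lower in the knockdown, with 48, 122 and 94 counts (knockdown A to C) against 335, 227 and 260 (WT A to C). Its log2 fold change in edgeR was -1.94 (SE 0.24) at an adjusted p of 8.22e-05. Library totals ran from 18036591 to 21131557 counts, and a single count was worth 0.0444 to 0.0597 counts-per-million (CPM). Knockdown B and WT A stood apart from the other libraries of their groups along gene length, as set out after the pathway. Of the 14 microglia and macrophage markers 12 were tested, 5 of them lower and 3 higher. Over all genes tested 19.6% were lower and 20.5% higher. The 14 markers summed to 4207 to 4718 CPM in the knockdown libraries and 4592 to 5174 in WT. Cx3cr1 (1 to 11 counts) and P2ry12 (0 to 2 counts), which define homeostatic microglia, were near 0 in all 6 libraries. Neuron, astrocyte and fibroblast markers summed to at most 2.08, 0.575 and 0.178 CPM in any library, and Snap25, Syt1, Aqp4, Col1a2 and Dcn were at 0 throughout. Oligodendrocyte markers summed to 55.1 to 66.0 CPM in the knockdown against 59.6 to 69.9 in WT, mostly from Cnp, while Mog and Olig2 were at 0. Endothelial markers summed to 38.7 to 54.7 against 19.9 to 28.4 CPM, mostly from Flt1, while Cldn5 and Cdh5 were at 0. Within the lists of other cell types 3 genes were called higher in the knockdown by edgeR: Mbp, a myelin protein gene, with 133, 154 and 156 counts (knockdown A to C) against 48, 39 and 41 (6.95 ± 0.103 against 2.44 ± 0.134 CPM; SD, n = 3; adjusted p = 8.68e-05), Flt1 (0.99, adjusted p = 0.000312) and Tubb3 (1.14, adjusted p = 0.0449). The part of these markers in the results was not tested.

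The summed level of the effectors was 77.2 to 85.7 CPM in the knockdown libraries and 303 to 349 CPM in the WT libraries. Most of this sum came from Ifi27l2a and Ifi35. Ifi27l2a held 53.2% to 55.9% of the counts in WT and 25.2% to 29.3% in the knockdown. Ifi35 held 32.7% to 33.6% in WT and 56.0% to 62.0% in the knockdown. The sum of the IFIT genes alone overlapped between the groups, as set out below. Of the 8 tested genes 5 fell, Ifi27l2a, Ifi35, Xaf1, Rsad2 and Cmpk2, and 0 rose at an adjusted p under 0.05 by edgeR. At an unadjusted p under 0.05 by edgeR, 7 were lower and 0 higher, the 5 called genes with Ifit1 and Ifit3. Many genes pass so loose a threshold: Ifit3, with an unadjusted p of 0.0465, ranked 5888 by p among the 12269 genes tested. Without knockdown B all 8 fell, and without knockdown B and WT A, left out together after the data were seen, 6 of the 8 fell, the same 5 and Ifit1. Each of these counts, and that at an unadjusted p, includes Ifit1, which exceeded the filter on low counts in no knockdown library. For Ifit3, knockdown B was the only knockdown library above that filter. Nothing is therefore read from these counts about the group. Across all genes tested 40.1% were called, 19.6% lower and 20.5% higher. In that background 2403 genes were lower and 2515 higher (1568 and 3893 when libraries were scaled by their totals). Of the 8 tested genes 6 were lower without overlap, the 5 called genes and Ifit1, against 24.3% of all genes tested lower and 26.7% higher without overlap. For the 5, the call and the lack of overlap rest on the same libraries, so the second is not a separate result. Ifit1 had passed the filter on low counts through the WT libraries alone, so nothing is read from it. The log2 fold changes of the 5 called genes ran from -2.99 to -1.16, and the median of all genes tested was 0.01, with an interquartile range of -0.32 to 0.33. Because the 5 were picked by their calls, their distance from that median is not a separate result. In bulk RNA, fewer cells expressing a gene and less RNA per cell cannot be told apart.

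**Figure D1:**
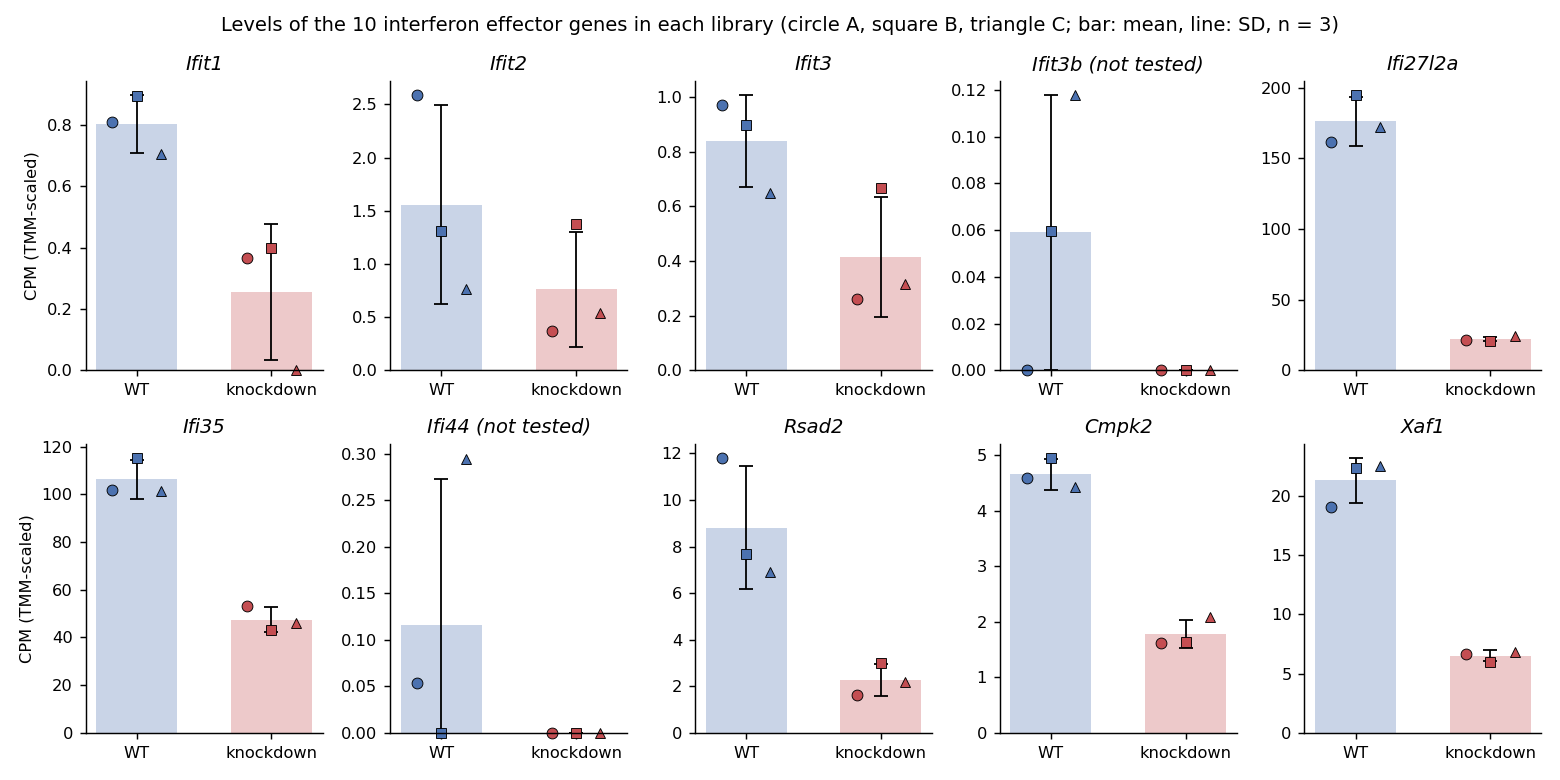
TMM-scaled CPM (y axis, from 0, its own scale for each gene) of the 10 effector genes in the WT and knockdown libraries; points are libraries A, B and C, bars are means and lines SD (n = 3). Ifi27l2a, Ifi35, Xaf1, Rsad2, Cmpk2 and Ifit1 show no overlap between groups, Ifit2 and Ifit3 do, and Ifit3b and Ifi44 are near 0. Nothing is read from Ifit1, which passed the filter on low counts through the WT libraries alone.

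Ifi27l2a, a gene of the IFI27 family, had the largest fall of the 8 tested effectors. It had 414, 469 and 532 counts (knockdown A to C) against 2988, 3267 and 2926 (WT A to C). Every WT library lay far above every knockdown library, and within each group the libraries lay close together. The level dropped to 22.2 ± 1.66 CPM from 176 ± 17.2 CPM (SD, n = 3), so that 12.6% of the WT level was left. This is a log2 fold change of -2.99 (SE 0.10) with an adjusted p of 3.07e-09 in edgeR. By p-value it ranked 5 among the 12269 genes tested, and by size of fall it ranked 52.

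Ifi27l2a also had a different weight among the 10 genes in each group. It held 53.2% to 55.9% of their summed counts in the WT libraries and 25.2% to 29.3% in the knockdown libraries. Ifi35 took the first place in counts, going from 32.7% to 33.6% of the sum in WT to 56.0% to 62.0% in the knockdown, although its own level fell. Ifi27l2a has 4 exons over 1.51 kb on the minus strand of chromosome 12 (103442167 to 103443680 in GRCm38), with 463 bases counted as its length. Its neighbour Ifi27, of the same family, lies 1.93 kb away. Ifi27 went from 404 ± 37.7 to 214 ± 32.1 CPM (SD, n = 3), a change of -0.92 on the log2 scale (SE 0.11; edgeR, adjusted p = 6.86e-05). The fall of Ifi27 was smaller than that of Ifi27l2a, though the difference between the 2 genes was not tested. Dicer1, the nearest tested gene on the other side at 1244 kb, stood at -0.18 (adjusted p = 0.510 by edgeR). Only 0.483% of the 50-base words of the Ifi27l2a transcripts occur in another gene, Ifi27l2b, which had no count in any library. Ppp4r3a itself lies 2.36 Mb from Ifi27l2a on the same chromosome.

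Ifi35, a leucine-zipper protein that pairs with NMI, fell from a high level. It had 1017, 974 and 1019 counts (knockdown A to C) against 1886, 1934 and 1723 (WT A to C). Its level went from 106 ± 7.98 CPM in WT to 47.5 ± 5.09 CPM in the knockdown (SD, n = 3), with 44.7% left and no overlap. On the log2 scale edgeR put the change at -1.16 (SE 0.10, adjusted p = 3.65e-06). Its 7 exons lie on the plus strand of chromosome 11 (101448407 to 101458698). Gm11626, an antisense gene inside it, shares 10.4% of its 50-base words but had at most 4 counts in any library. Rpl27, a ribosomal protein gene 2.88 kb upstream, fell by 0.45 (SE 0.09, adjusted p = 0.00211 by edgeR), and Vat1, 47 bases beyond its other end, had 0.25 (adjusted p = 0.0823; 0.0247 without knockdown B and 0.00576 with library totals).

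Ifi44, a cytoplasmic protein of the interferon response, was barely present. It had 0 counts in the 3 knockdown libraries, which allows up to 0.0470 CPM over the group (3 counts; counting error only), and 1, 0 and 5 counts (WT A to C). With the 6 WT counts taken as exact, the WT level was 2.44-fold above that floor of 3 counts. Ifi44 was too low to be tested, and 5 of the 6 WT counts came from WT C, so no fall is read from this. The gene has 8 exons on the minus strand of chromosome 3 (151730922 to 151749960), and its paralogue Ifi44l had no count in any library. The nearest tested genes, Gm6439 at 1215 kb (log2 fold change 0.32, adjusted p = 0.738) and Gipc2 at 344 kb (0.65, adjusted p = 0.0961), were not called by edgeR.

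Rsad2 encodes viperin, a radical-SAM enzyme that turns CTP into a chain-terminating nucleotide, and Cmpk2 encodes a mitochondrial nucleotide kinase that can supply CTP. Both fell. Rsad2 had 31, 68 and 48 counts (knockdown A to C) against 219, 129 and 117 (WT A to C). All WT libraries were above all knockdown libraries, but WT A stood well above the other WT libraries and knockdown B above the other knockdown ones. Its level was 2.27 ± 0.706 CPM against 8.80 ± 2.65 (SD, n = 3), with 25.8% left. Fitted by edgeR, the log2 fold change came to -1.95 (SE 0.28, adjusted p = 0.000197), and without knockdown B and WT A, left out together after the data were seen, it was -1.92 (adjusted p = 1.28e-07).

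Cmpk2 had 31, 37 and 46 counts (knockdown A to C) against 85, 83 and 75 (WT A to C). Its libraries agreed more closely within groups than those of Rsad2, at 1.78 ± 0.258 CPM against 4.65 ± 0.275 (SD, n = 3). Its log2 fold change in edgeR was -1.38 (SE 0.22) at an adjusted p of 0.000469, with 38.3% left. The genes are neighbours on chromosome 12 that are read away from each other, Rsad2 on the minus strand (26442746 to 26456452, 6 exons) and Cmpk2 on the plus strand (26469204 to 26479837, 5 exons), with starts 12.8 kb apart. Neither shares a 50-base word with another gene.

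The balance between the 2 neighbours was compared within each library. The log2 ratio of Cmpk2 to Rsad2 counts was 0.00, -0.88 and -0.06 (knockdown A to C) against -1.37, -0.64 and -0.64 (WT A to C). The groups overlapped through knockdown B. The mean ratio was 0.57 higher in the knockdown (two-sided exact permutation test, p = 0.3), where 3 libraries against 3 cannot give a p below 0.1. Of 4 ratios planned, this was the single one with counts in every library. With 1 added to each count, the knockdown minus WT difference was 0.57 for Cmpk2 to Rsad2, -0.11 for Ifit3b to Ifit3, 1.04 for Ifit2 to Ifit1 and 1.04 for Ifit3 to Ifit1, and the exact p was 0.3, 1.0, 0.6 and 0.4. Outside the pair, Id2, an inhibitor of helix-loop-helix factors 1346 kb away, fell by 0.65 (adjusted p = 0.000248 by edgeR), and Rps7, 2151 kb away, had -0.28 (adjusted p = 0.0915; 0.00936 without WT A and 0.0464 by DESeq2).

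Xaf1, a zinc-finger protein that binds XIAP and favours cell death, fell evenly in all libraries. It had 128, 135 and 152 counts (knockdown A to C) against 354, 374 and 383 (WT A to C). The level was 6.52 ± 0.459 CPM against 21.3 ± 1.92 (SD, n = 3), with 30.6% left and no overlap. This is a log2 fold change of -1.71 (SE 0.14) with an adjusted p of 4.01e-06 in edgeR. Xaf1 has 6 exons on the plus strand of chromosome 11 (72301629 to 72313733), and 1.61% of its 50-base words occur in other genes. Its nearest tested neighbours moved in opposite directions and by less, Med31 of the mediator complex with 0.45 (adjusted p = 0.0224 by edgeR) and the nucleolar protein gene Mybbp1a with -0.31 (adjusted p = 0.00980). Med31 was not called without WT A (adjusted p = 0.0762), WT C (0.0546) or knockdown C (0.0917), and Mybbp1a not without WT C (0.0528) or knockdown C (0.0688).

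**Figure D2:**
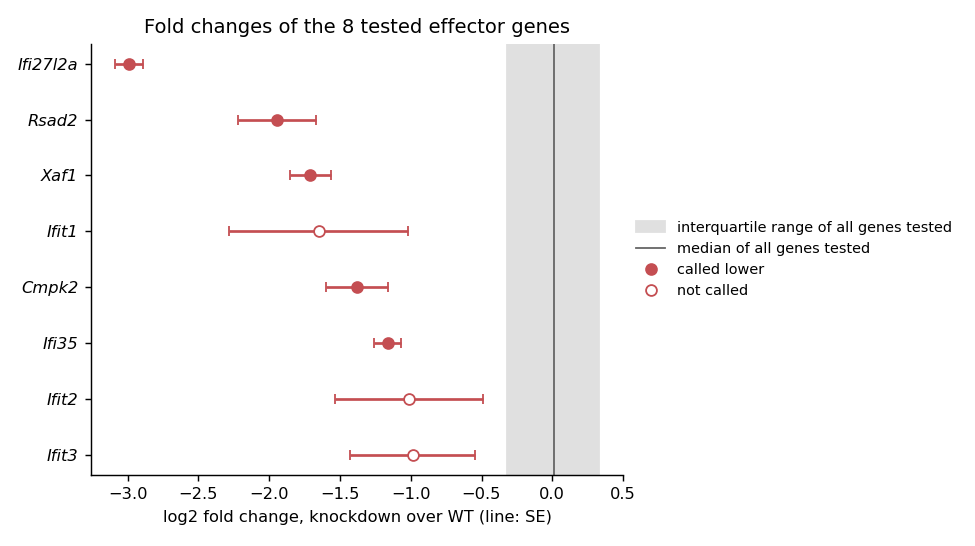
Log2 fold change of knockdown over WT (x axis; line: SE from edgeR) for the 8 tested genes, with the interquartile range (grey band) and the median (grey line) of all genes tested. The points lie below the band, from -2.99 for Ifi27l2a to -0.99 for Ifit3. Filled points passed an adjusted p under 0.05 and the open ones, Ifit1, Ifit2 and Ifit3, did not. Ifit1 passed the filter on low counts through the WT libraries alone, so nothing is read from its place.

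The IFIT genes form 1 cluster on chromosome 19, with Ifit2, Ifit3, Ifit3b and Ifit1 in that order on the plus strand over 99.3 kb (34550694 to 34650009). Counts were low in both groups, with at most 48 for any of the 4 in a library, and of the 3 tested none passed the adjusted threshold by edgeR, while Ifit1 and Ifit3 had unadjusted p-values of 0.0233 and 0.0465. With limma-voom in place of edgeR, Ifit1 was called (adjusted p = 0.0343), and with DESeq2 none of the 3 was. Their summed level was 0.993, 2.44 and 0.858 CPM (knockdown A to C) against 4.37, 3.16 and 2.24 CPM (WT A to C). The sums overlapped, because knockdown B lay above WT C.

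Ifit1, which recognises RNA that lacks the methylated cap of host messages, had 7, 9 and 0 counts (knockdown A to C) against 15, 15 and 12 (WT A to C). The groups did not overlap. On the log2 scale edgeR put the change at -1.65 (SE 0.63, adjusted p = 0.0565). It passed the filter on low counts through the WT libraries alone: 3 of them and 0 of the knockdown libraries exceeded 0.536 CPM. Leaving out knockdown B gave -2.16 (adjusted p = 0.0375) and leaving out knockdown C gave -1.05 (adjusted p = 0.130). Of sequence, 7.13% of the gene's 50-base words occur in 2 related genes, Ifit1bl1 and Ifit1bl2. Ifit1bl1 had 3 counts, all in WT C, and Ifit1bl2 had none.

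Ifit2, which is known to bind AU-rich RNA and to favour apoptosis, had 7, 31 and 12 counts (knockdown A to C) against 48, 22 and 13 (WT A to C). Knockdown B lay above WT B and WT C, so the groups overlapped. The level was 0.762 ± 0.540 CPM against 1.56 ± 0.937 (SD, n = 3). The log2 fold change of -1.01 (SE 0.52) was not called (adjusted p = 0.145 by edgeR), became -1.74 with knockdown B left out (adjusted p = 0.0224), -0.70 with knockdown A left out (0.353) and -0.42 with WT A left out (0.580).

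Ifit3, which stabilises the complex of IFIT proteins on RNA in human cells, had 5, 15 and 7 counts (knockdown A to C) against 18, 15 and 11 (WT A to C). The ranges overlapped, again through knockdown B. edgeR put its log2 fold change at -0.99 (SE 0.44, adjusted p = 0.0969), and without knockdown B at -1.49 (0.0391). Of the knockdown libraries 1, knockdown B, and of the WT libraries all 3, exceeded the filter. Without knockdown B, Ifit3 thus passed it through the WT libraries alone. Ifit3b, its near copy, had 0 counts in the knockdown libraries and 0, 1 and 2 (WT A to C), at the floor of 3 counts, so that no fold is given. Because 51.2% of the 50-base words of Ifit3 also occur in Ifit3b, reads could have been split or dropped between them. With the counts of both summed, the log2 fold change was -1.08 (adjusted p = 0.0644). The nearest tested genes outside the cluster, the lysosomal lipase gene Lipa at 23.2 kb and Pank1 at 161 kb, had 0.12 (adjusted p = 0.225) and -0.28 (adjusted p = 0.179) by edgeR.

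Levels can be compared between genes per length, on the FPKM scale (counts scaled by gene length and depth) that the authors deposited. The order of the first 8 genes by mean was the same in both groups, and the other two, Ifit3b and Ifi44, were tied at 0 in the knockdown. In WT, Ifi27l2a came first with 379 ± 36.4 FPKM, then Ifi35 with 61.3 ± 4.54, Xaf1 with 4.53 ± 0.400, Rsad2 with 2.03 ± 0.613 and Cmpk2 with 1.11 ± 0.0654 (SD, n = 3). The IFIT genes followed with 0.479 ± 0.0975 FPKM for Ifit3, 0.395 ± 0.239 for Ifit2 and 0.302 ± 0.0355 for Ifit1 (SD, n = 3), and Ifit3b and Ifi44 came last with 0.0294 and 0.0189 FPKM. Libraries of neighbours in this order overlapped between Ifit3 and Ifit2, between Ifit2 and Ifit1 and between Ifit3b and Ifi44.

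In the knockdown, Ifi27l2a had 47.4 ± 3.84 FPKM and Ifi35 had 27.3 ± 3.33 (SD, n = 3). Xaf1 had 1.38 ± 0.114, Rsad2 had 0.517 ± 0.153 and Cmpk2 had 0.424 ± 0.0619 (SD, n = 3). The FPKM of Ifit3, Ifit2 and Ifit1 were 0.234 ± 0.120, 0.191 ± 0.132 and 0.0950 ± 0.0824 (SD, n = 3), and Ifit3b and Ifi44 were listed at 0. Adjacent genes overlapped here between Rsad2 and Cmpk2, between Ifit3, Ifit2 and Ifit1, and among the last 3 genes.

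**Figure D3:**
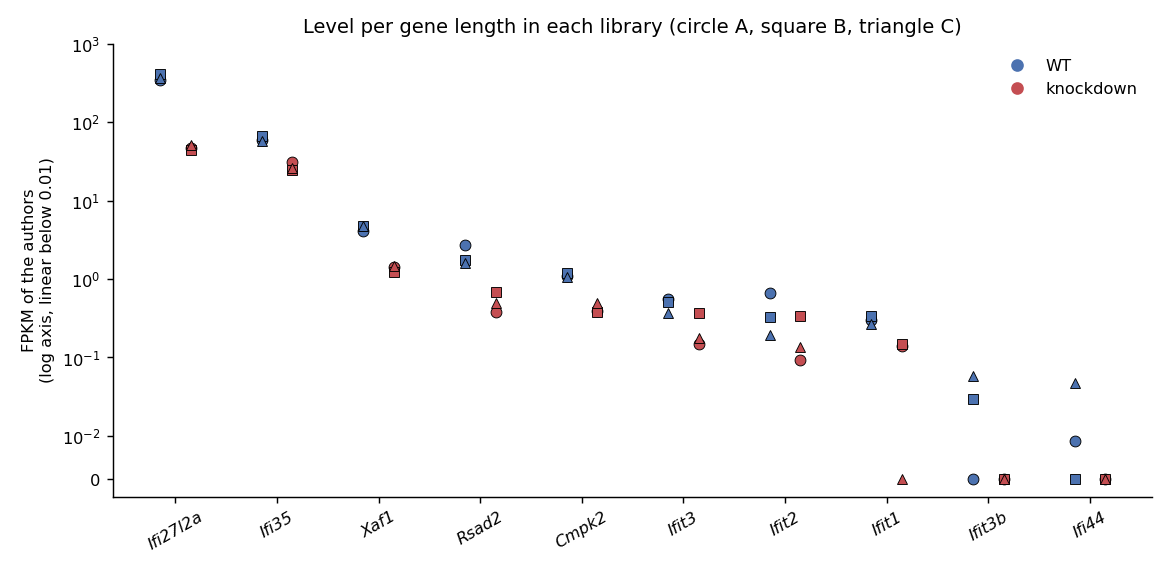
FPKM of the authors (y axis, log scale, linear below 0.01) for each effector gene in every library, WT in blue and knockdown in red, with genes ordered by their WT mean. Ifi27l2a and Ifi35 stand above 20 FPKM in all libraries, while the 4 IFIT genes stay below 1 FPKM.

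Relatives and partners of the effectors were mixed. Of 8 genes listed as relatives 4 were tested, and 2 of them fell, Ifi27 and Ifi47, against 19.6% lower over all genes tested. Ifi30 and Ifi47 share the Ifi symbol with the effectors rather than a family, so nothing is read from this count about families. Ifi47, an interferon-induced GTPase, went from 4.94 ± 0.461 to 2.55 ± 0.839 CPM (SD, n = 3). Its log2 fold change of -0.95 (adjusted p = 0.0121 by edgeR) was not called without WT C (adjusted p = 0.0517). Ifi30, a lysosomal thiol reductase, was not called, at 0.21 (adjusted p = 0.0920; 0.0179 without knockdown B and 0.000920 with library totals), and neither was Nmi, the partner of Ifi35, at -0.13 (adjusted p = 0.513).

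Among 12 partners 2 fell and 1 rose, no more than the background of 19.6% lower and 20.5% higher over all genes tested, and nothing is read from these counts about the partners as a set. Eif3e, a subunit of the translation initiation factor that IFIT proteins bind, fell by 0.73 (SE 0.08, adjusted p = 4.68e-05 by edgeR), whereas Eif3c had 0.10 (adjusted p = 0.520). Xiap, the partner of Xaf1, fell by 0.94 (SE 0.27, adjusted p = 0.0143 by edgeR), a call lost without WT A (0.0603) or knockdown A (0.0601) and with library totals (0.0611). Fdps, the farnesyl diphosphate synthase that viperin binds, rose by 0.99 (SE 0.23, adjusted p = 0.00456 by edgeR), from 2.19 ± 0.391 to 4.35 ± 0.327 CPM (SD, n = 3). The other viperin partners Hadhb, Irak1, Traf6 and Ciao1 lay between -0.15 and 0.10, and Vdac2, Cmpk1 and Syncrip had 0.12, -0.12 and -0.17. None of these 7 was called by edgeR, and Vdac2 was called with library totals (0.00463).

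The pathway around these effectors was followed from ligand to target in 5 lists of 85 genes, of which 58 were tested. Together 37 were lower (63.8%) and 6 higher, with a median log2 fold change of -0.73. Over all genes tested 19.6% were lower and 20.5% higher, the background for the counts of each list below. The 21 interferon ligand genes were almost silent in both groups: 17 had no count, and the other 4, Ifna4, Ifnk, Ifnb1 and Ifnz, summed to 1 count over the knockdown and 7 over the WT libraries. None could be tested.

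All 9 receptor and kinase genes were tested, and 4 rose. They were Ifnar2 (0.87, SE 0.09), Ifngr2 (0.76, SE 0.09), Ifnar1 (0.76, SE 0.08) and Il10rb (0.60, SE 0.09), receptor chains of interferons and interleukin-10, with adjusted p between 2.16e-05 and 0.000275 by edgeR. All 4 lie on chromosome 16, where the median log2 fold change over 300 genes was 0.38, and the part of this shift in their rise was not tested. Jak2, a kinase of the interferon-gamma receptor, fell by 1.23 (SE 0.33, adjusted p = 0.0120 by edgeR), a call lost without WT A (0.0601). Ifngr1 (-0.08), Tyk2 (0.11), Jak1 (0.01) and Ifnlr1 (0.01) were not called.

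Among the transcription factors, Irf7, which amplifies interferon production, fell by 4.44 (SE 0.13, adjusted p = 1.39e-09 by edgeR), from 232 ± 15.6 to 10.8 ± 2.10 CPM (SD, n = 3). Irf9, a subunit of a complex that binds the ISRE, fell by 0.79 (SE 0.09, adjusted p = 5.13e-05 by edgeR), on chromosome 14, where the median over 318 genes was -0.33. Stat2, which acts in the same complex, fell by 0.46 (SE 0.15, adjusted p = 0.0256 by edgeR). That call was lost with library totals (0.131) and without WT C (0.0782), knockdown C (0.0759), knockdown B (0.0757) or WT A (0.0824). Irf8, a macrophage lineage factor, rose by 0.49 (SE 0.09, adjusted p = 0.00110 by edgeR). Irf1 (-0.28), Irf2 (-0.21), Irf5 (-0.21) and Irf3 (-0.16) were not called, though Irf5 was without knockdown A (0.0237).

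Among 6 feedback inhibitors, Usp18, which removes ISG15 and blocks IFNAR2, fell by 3.20 (SE 0.12, adjusted p = 8.41e-09 by edgeR), from 104 ± 7.26 to 11.3 ± 1.80 CPM (SD, n = 3). The phosphatase Ptpn6 fell by 0.23 (adjusted p = 0.0476), a call lost when any of knockdown B (0.153), knockdown C (0.177), WT B (0.130) or WT C (0.160) was left out, and with library totals (0.354). Socs3 (-0.04), Pias1 (-0.10), Socs1 (0.50) and Ptpn2 (0.40) were not called, though Ptpn2 was without knockdown A (0.0190).

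Of 40 other interferon-induced effectors 34 were tested; 30 fell, 1 rose and 3 were not called, and their median log2 fold change was -1.40. The largest falls were those of Rtp4 (-5.25, SE 0.21), a chaperone of opioid receptors, the ubiquitin-like Isg15 (-3.79, from 57.1 ± 4.57 to 4.11 ± 0.847 CPM; SD, n = 3) and the antiviral gene Samd9l (-2.87, SE 0.54). Samd9l, counted among the 30, had 2, 7 and 9 counts (knockdown A to C) against 66, 20 and 25 (WT A to C). It passed the filter on low counts through the WT libraries alone, so nothing is read from its fall. At the other end stood Ifitm3, a membrane protein that blocks viral fusion, which rose by 0.62 (SE 0.09, adjusted p = 0.000208 by edgeR), and Trim30a (0.60) and Herc6 (-0.34), which were not called. The fold change of Ifi27l2a was smaller in size than that of Isg15.

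**Figure D4:**
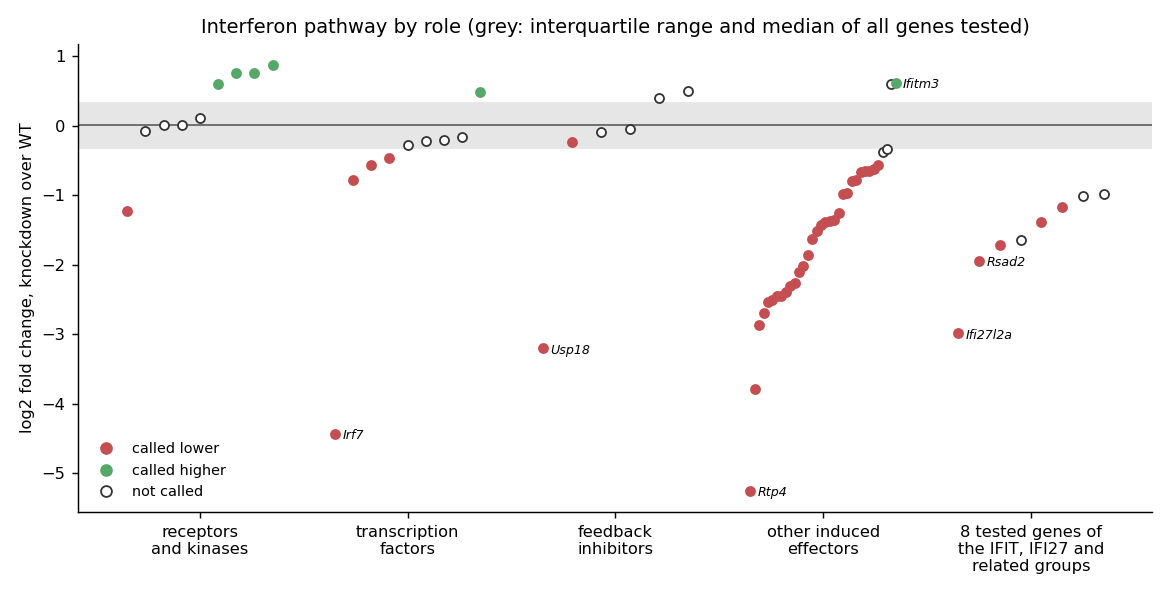
Log2 fold change of knockdown over WT (y axis) for every tested gene of the interferon pathway, grouped by role, with the 8 tested effector genes on the right; the grey band and line are the interquartile range and median of all genes tested. The receptor chains that rose sit at 0.60 to 0.87, Irf7 at -4.44 and Usp18 at -3.20.

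Within groups, 2 libraries stood apart along gene length. Knockdown B and WT A had higher values for long genes and lower values for short ones: the deviation from the group mean had a Pearson correlation across 12269 genes with log2 gene length of 0.32 in knockdown B and 0.33 in WT A, against -0.30 to -0.07 in the other 4 libraries. Genes are not independent replicates, and the libraries of a group share their mean. Over 6 kb the median deviation was 0.115 in knockdown B and 0.0654 in WT A on the log2 scale. Rsad2 and Ifit2 were highest in those same 2 libraries, by 0.38 and 0.66 in knockdown B and by 0.44 and 0.69 in WT A above their group means. Ifit3 was highest there too, by 0.38 and 0.15. For genes of their own length class the median deviation in knockdown B and WT A was 0.00103 and -0.00982 (Rsad2, 4335 bases in the table), -0.0512 and -0.0562 (Ifit2, 3927 bases) and -0.0690 and -0.0805 (Ifit3, 1745 bases). Cmpk2 and Xaf1, of 4163 and 4689 bases, lay below their group means in both libraries, as did Ifi27l2a and Ifi35. The part of gene length in the spread of Rsad2 and the IFIT genes was not tested.

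**Figure D5:**
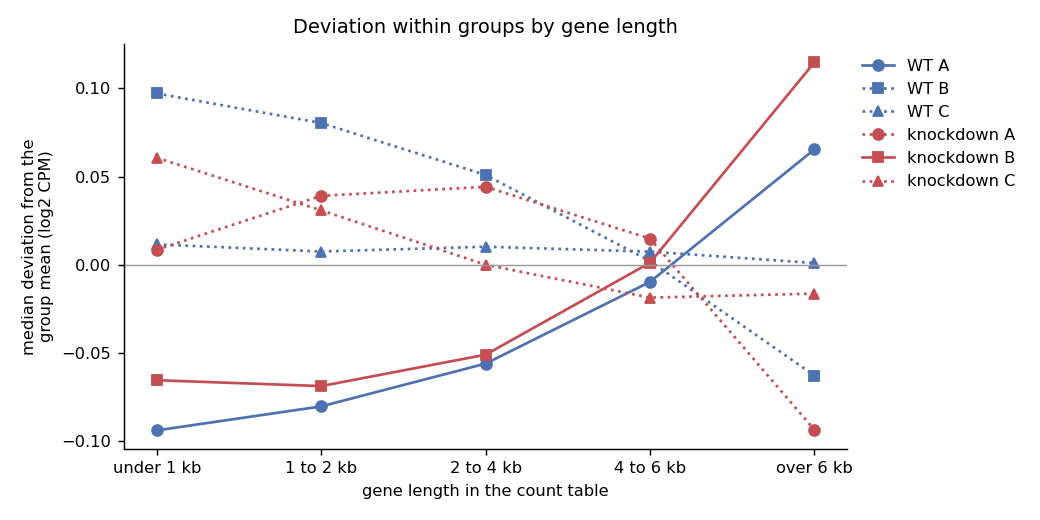
Median deviation of genes from their group mean (y axis, log2 CPM) by gene length in the count table (x axis, 5 bins) for each library. Knockdown B and WT A, drawn as solid lines, rise with length to 0.115 and 0.0654 above 6 kb.

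The genes outside the group whose log2 levels over the 6 libraries were most like the mean of the 8 tested effectors were Mzt1, Hipk2, Itpr1, Zfp503 and Kctd17, with Pearson correlations of 0.999, 0.998, 0.997, 0.997 and 0.997 (n = 6 libraries). The 6 libraries fall into 2 separate groups for these genes, and 648 of 8616 genes compared had a correlation above 0.95. All 5 were called lower, a direction set by the way they were chosen, with log2 fold changes of -0.47 for Mzt1, -0.72 for Zfp503, -0.98 for Hipk2, -1.22 for Kctd17 and -1.56 for Itpr1, an inositol trisphosphate receptor. The effectors themselves lie on chromosomes 3, 11, 12 and 19, where the median log2 fold changes were -0.02, 0.00, 0.02 and -0.16. The called effectors lie on chromosomes 11 and 12, and the part of chromosome position in their falls was not tested.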

How the data were processed

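RNA-seq of 3 SMEK1 knockdown and 3 WT libraries of BV2 cells was analysed from the authors' deposited table of whole-number counts per gene. The deposited FPKM values of the authors served for levels per length; in each library they equal the count per kilobase divided by 1.02 to 1.12 times the library total in the knockdown and 0.911 to 0.991 times in WT. A SMARTER mRNA kit and 1.3 µg of RNA per library were used, per the labels' protocols. The genome build was GRCm38 (mm10), per the submitters' processing notes. Not given in the sources used here are the aligner, the counter, its handling of strand and the annotation.

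The test of the counts was that of edgeR 4.0.16 under R 4.3.3 (quasi-likelihood, filterByExpr with a minimum count of 10, TMM, glmQLFit, glmQLFTest, no covariates, Benjamini-Hochberg over 12269 genes, called at an adjusted p under 0.05). Every adjusted p in the text comes from this fit or, where a setting is named, from that setting. SE is |log2 fold change| over the root of F, an approximation. The script was tested on simulated data. No 2 libraries of a group agreed within sampling noise (chi-square per degree of freedom 5.69 to 19.8).

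Gene models (exons from the longest coding transcript) and shared 50-base words came from GENCODE M21, which gives the same start and end for all 10 genes, and promoters from RefSeq. Likeness to other genes used log2(CPM + 1) and a mean of at least 5 CPM. Chromosome medians are over genes whose mean log2 CPM exceeded 2. Alternatives were other scalings, filters and tools (DESeq2 1.42.0, limma 3.58.1), a replicate block, other thresholds, Ifit3 and Ifit3b summed, and leaving out each library. The members, the lists and the rule for named genes were chosen with earlier results of these data known. That rule names the 10 genes and Ppp4r3a, relatives and partners with a count, tested receptors, kinases, factors and inhibitors, the 3 highest and 3 lowest fold changes among other effectors, the nearest tested neighbours, and the 5 most alike genes. Markers and ligands named beside their list were chosen after their values were seen. The result for 1 transcription factor of the lists is not reported here.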

Additional observations from a re-analysis of the deposited data

How the results depend on the processing

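Over 20 alternative settings, Ifi27l2a, Ifi35, Xaf1, Rsad2 and Cmpk2 were called lower in all 20, and no tested effector changed sign. The log2 fold change of Ifi27l2a ran from -3.05 to -2.83, that of Xaf1 from -1.79 to -1.22 and that of Rsad2 from -2.19 to -0.98; the values nearest 0 for Xaf1, Rsad2 and Cmpk2 (-0.57) came from log2(FPKM + 1). The number of effectors called lower was 5 to 8 when 1 library was left out, and all 8 were called without knockdown B (replicate 2). The 8 include Ifit1 and Ifit3, which without knockdown B exceeded the filter in the WT libraries alone. Nothing is read from that count. Ifit1 was called in 4 of 17 settings (with the filter of 1 count, adjusted p = 0.0261; limma-voom, 0.0343; without knockdown B, 0.0375; without knockdown B and WT A, a setting added after the data were seen, 0.0143), Ifit2 in 2 of 18 (filter of 1 count, 0.0398) and Ifit3 in 1 of 17. With that filter Ifi44 and Ifit3b could be tested and had adjusted p of 0.117 and 0.309 by edgeR. Over all genes, 4918 calls became 989 in a test against a fold of 1.5 and 3181 at an adjusted p under 0.01. In the test against a fold of 1.5, 5 effectors and 25 pathway genes were called lower and 1 pathway gene higher. Over all genes that test called 475 lower (3.87%) and 514 higher. With library totals the median log2 fold change of all genes shifted from 0.01 to 0.17, and 71.3% of calls were higher instead of 51.1%. The replicate block gave 3326 calls, 1648 lower (13.4% of all genes tested) and 1678 higher. With it 5 effectors were lower, and 31 pathway genes were lower and 6 higher. The letters A, B and C are not stated to pair cultures, and deviations of same-letter libraries correlated at -0.36, -0.33 and 0.00. At most 48 counts were recorded for an IFIT gene or Ifi44 in any library, and the part of depth in their missing calls was not tested.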
